A study of Mus musculus with 3 samples.

Results

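Gene expression was compared between a C2C12 line with a hairpin RNA (shRNA) meant to deplete FoxO1 and a C2C12 line with one meant to deplete FoxO4, with 1 array for each line. C2C12 is an established mouse myoblast line, that is, of muscle precursor cells that divide in culture and can fuse into myotubes. The series holds 3 arrays, and the third, from a line with a FoxO3 hairpin, is printed here as a further measurement that entered no difference and no count of calls. All 3 lines were kept in DMEM with puromycin and came from colonies screened for depletion of the intended FoxO gene, and total RNA from each was hybridised to an Affymetrix mouse array. Each hairpin was thus seen in 1 selected line, so what a hairpin does and what a colony is like cannot be told apart. Probe sets were used where the scaled signal was 1000 or more on at least 1 of the 2 arrays, and these are called bright below. They numbered 14624 of 45101 probe sets, which is 32.4%. Of these, 13031 carried a single gene symbol and covered 9142 of the 18194 genes with such a probe set on the array, while the other 9052 genes had no bright probe set. The log2 difference is the FoxO1-labelled array minus the FoxO4-labelled array, after a floor at the 20th percentile of each array, and a gene's value is the median over its bright probe sets. A gene was counted as different at 2-fold or more, a log2 difference of 1. With 1 array a line no difference has a replicate check, and neither p-values nor standard errors are given.

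FoxO proteins are forkhead transcription factors that insulin and growth factor signalling holds out of the nucleus through Akt. In skeletal muscle they are known for switching on ubiquitin ligase and autophagy genes during wasting, and in many cells for inhibitors of the cell cycle and for stress defence genes. FoxO1 is also known as a brake on myoblast differentiation. FoxO1, FoxO3 and FoxO4 bind the same core DNA sequence and share many target genes.

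The hairpin targets were read first. Foxo1 was not low on the FoxO1-labelled array. Its 3 bright probe sets read 1378, 2778 and 2221 on the FoxO1-labelled array, 592, 1827 and 1573 on the FoxO4-labelled array and 559, 563 and 439 on the FoxO3-labelled array. All 3 were highest on the FoxO1-labelled array, and the median log2 difference was 0.60. The fourth Foxo1 probe set was dim, at 105.5 on the FoxO1-labelled array, 59.2 on the FoxO4-labelled array and 62.4 on the FoxO3-labelled array. Foxo1 therefore went against the label of its array, and each direction below is that of the FoxO1-labelled array. Foxo4 gave opposite answers from its 2 probe sets. The bright one read 1799 on the FoxO1-labelled array, 80.4 on the FoxO4-labelled array and 345 on the FoxO3-labelled array, a log2 difference of 4.48. The dim one read 188 on the FoxO1-labelled array, 763 on the FoxO4-labelled array and 163 on the FoxO3-labelled array. Foxo3 had bright probe sets at 2379.7 and 1357 on the FoxO1-labelled array and 386 and 1016 on the FoxO4-labelled array, against 1573 and 1047 on the FoxO3-labelled array. Both were higher on the FoxO1-labelled array than on the other arrays. No probe set carried the symbol of Foxo6.

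Myoblast markers were present on both arrays. Of the 10 markers listed, 9 reached a signal of 1000 on the FoxO1-labelled array, 6 on the FoxO4-labelled array and 8 on the FoxO3-labelled array, and Pax7 was dim on all 3. By their brightest probe sets, Des and Myod1 fell under 1000 on the FoxO4-labelled array alone, and Myog on the FoxO4-labelled and FoxO3-labelled arrays. Nerve, endothelial, macrophage, adipocyte, chondrocyte and osteoblast markers summed to between 1357.5 and 3580.5 on the FoxO1-labelled array and between 1613 and 3675 on the FoxO4-labelled array. Smooth muscle markers summed to 250553 on the FoxO1-labelled array and 296426 on the FoxO4-labelled array, most of it Acta2, which myoblasts in culture are known to express. Of these 6 markers, 5 reached 1000 on the FoxO1-labelled array and 2 on the FoxO4-labelled array. Cnn1, Lmod1, Myh11 and Mylk were higher on the FoxO1-labelled array, while Acta2 and, slightly, Tagln were lower, so the sums follow Acta2 alone. Fibroblast markers summed to 51302 on the FoxO1-labelled array and 21235 on the FoxO4-labelled array, and Col1a1 made up most of the first sum. Of these 9 markers, 2 reached 1000 on the FoxO1-labelled array and 3 on the FoxO4-labelled array. Col1a1, Tcf4, Osr1 and Thy1 were higher on the FoxO1-labelled array, and Dcn, Dpt, Lum, Pdgfra and Twist2 were lower. The 2 arrays also differed in quality values. The signal of the 3' probe set over that of the 5' probe set was 6.31 for Actb and 5.0 for Gapdh on the FoxO1-labelled array, against 3.45 and 2.23 on the FoxO4-labelled array. The median signal was 462 on the FoxO1-labelled array and 398 on the FoxO4-labelled array, with 12319 and 11651 probe sets at 1000 or more. The 18 hybridisation control probe sets, spiked into every sample, had a median log2 difference of 0.39 and ranged between 0.02 and 0.64. How much of any result these values account for was not tested. In bulk RNA, fewer cells of a type and less RNA per cell cannot be told apart.

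Over the 9142 genes the median log2 difference was 0.01, with quartiles of -0.57 and 0.63. At 2-fold, 1434 genes were higher on the FoxO1-labelled array, which is 15.7% of the genes, and 1139 were lower, which is 12.5%, together 28.1%. Most of these differences rested on probe sets that were bright on 1 array only. Of 2059 bright probe sets at least 2-fold higher on the FoxO1-labelled array, 1593 were under 1000 on the FoxO4-labelled array, and of 1816 at least 2-fold lower, 1220 were under 1000 on the FoxO1-labelled array. Where probe sets had to reach 1000 on both arrays, 315 of 6417 genes were higher, or 4.91%, and 371 were lower, or 5.78%. The split between the directions moved with the scaling. Higher genes made up 55.7% of the 2-fold genes with the authors' scaling, 41.1% after each array was divided by its median, 53.8% after quantile normalisation and 31.5% with scaling on the hybridisation controls. Against the authors' scaling, the median of all genes shifted by -0.21 with median scaling and by -0.36 with control scaling, both of which move every gene alike. Probe sets just below the limit, at 900 to 1000, numbered 1529 with a median log2 difference of 0.30, and those at 1000 to 1100 numbered 1289 with a median of 0.22.

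Several probe sets of 1 gene gave the only repeat measurement on an array. They share the RNA and test the probes, not the cells. Among the 2816 genes with 2 or more bright probe sets, 1475 had all of them on the same side of 0, which is 52.4%. Genes with all bright probe sets at least 2-fold higher on the FoxO1-labelled array numbered 80, or 2.84%, and those with all at least 2-fold lower numbered 67, or 2.38%. Against these 147 stood 119 genes with 1 bright probe set 2-fold or more higher and another 2-fold or more lower. The pooled SD of the log2 difference between probe sets of 1 gene was 1.09, which is as large as the 2-fold limit. Agreement depended on brightness. Where the dimmest bright probe set of the gene peaked at 1000 to 2000, 108 of 1929 genes agreed at 2-fold and 107 were 2-fold each way, with a pooled SD of 1.22. At 4000 or more, 19 of 353 genes agreed and 3 were 2-fold each way, with a pooled SD of 0.58. A difference seen in 1 probe set near the limit was thus no larger than the spread between probe sets, and the genes below are given mainly where several bright probe sets agree.

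**Figure D1:**
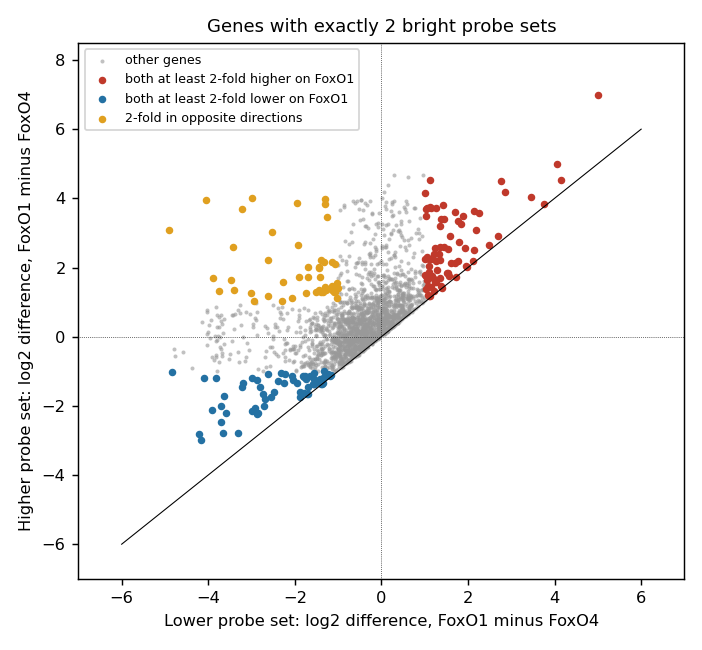
Each point is 1 of the 2040 genes with exactly 2 bright probe sets. The x axis is the lower and the y axis the higher of the 2 log2 differences (the FoxO1-labelled array minus the FoxO4-labelled array), red and blue mark genes whose probe sets are both at least 2-fold higher or both at least 2-fold lower on the FoxO1-labelled array, and orange marks genes 2-fold in opposite directions. Points on the diagonal line have equal probe sets, and the median gap between the probe sets of a gene was 0.82.

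Mmp2, the gelatinase that degrades collagen IV, headed the genes that were higher on the FoxO1-labelled array. Its probe sets read 36991 and 56181 on the FoxO1-labelled array, 1149.7 and 442 on the FoxO4-labelled array and 801 and 1183 on the FoxO3-labelled array. Only on the FoxO1-labelled array was either of them above 2000, and the log2 differences were 5.01 and 6.99. Mmp23, a membrane-anchored matrix metalloproteinase, was likewise high on that array alone, with 1638 and 2694 on the FoxO1-labelled array, 99.6 and 247 on the FoxO4-labelled array and 126 and 151 on the FoxO3-labelled array. Col11a1, a minor fibrillar collagen best known from cartilage, read 3237 and 2992 on the FoxO1-labelled array, 140.3 and 169 on the FoxO4-labelled array and 118 and 22.9 on the FoxO3-labelled array. Its log2 differences were 4.53 and 4.15, and it too stood out on the FoxO1-labelled array from both others. Col18a1, the basement membrane collagen that releases endostatin, read 14281 and 26693 on the FoxO1-labelled array, 2265 and 4804 on the FoxO4-labelled array and 3355 and 7925 on the FoxO3-labelled array. All 6 of these signals were above 1000, so its log2 difference of 2.57 compares bright values on both sides. Col1a1, a chain of type I collagen, read 42337 and 22046 on the FoxO1-labelled array, 6319 and 6326 on the FoxO4-labelled array and 8321 and 1706 on the FoxO3-labelled array, with a log2 difference of 2.27.

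Outside the matrix, Dio2, the deiodinase that turns thyroxine into its active form, read 1343 and 1159 on the FoxO1-labelled array and 99.8 and 81.0 on the FoxO4-labelled array. On the FoxO3-labelled array the same probe sets read 2096 and 198, so only 1 of them was high there. Ank2, which encodes ankyrin-B, an adaptor between membrane proteins and the cytoskeleton, read 1295 and 2467 on the FoxO1-labelled array, 27.9 and 23.6 on the FoxO4-labelled array and 699.7 and 962 on the FoxO3-labelled array. Kank3, a cytoskeletal adaptor, read 1099 and 1892 on the FoxO1-labelled array and 151 and 104 on the FoxO4-labelled array. Slc41a3, of a magnesium transporter family, read 1729 and 2599.9 on the FoxO1-labelled array and 254 and 114 on the FoxO4-labelled array. Nudt16, a nucleotide hydrolase, read 1425 and 1633 on the FoxO1-labelled array and 219 and 217 on the FoxO4-labelled array. Receptors and signalling genes came next. Gpr146, an orphan receptor, read 1111 and 1414 on the FoxO1-labelled array and 93.6 and 297 on the FoxO4-labelled array. Paqr8, a membrane progesterone receptor, read 1278 and 1145 on the FoxO1-labelled array and 289.7 and 204 on the FoxO4-labelled array, and 1852 and 1920.4 on the FoxO3-labelled array, where it was highest. Adgrg6, an adhesion receptor known for its role in myelination, was also high on 2 of the 3 arrays, with 1545 and 7604 on the FoxO1-labelled array, 354 and 1653 on the FoxO4-labelled array and 1248 and 10759.7 on the FoxO3-labelled array. The rest of the first 20 were Stxbp2, C2, Gng2, Wdr33, Agtrap, Alkbh3 and Pear1, with gene log2 differences between 1.98 for Gng2 and 2.90 for C2. Dim probe sets of Ank2, Gpr146 and Gng2 read at least 2-fold the other way.

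Lsm6, a subunit of the ring that binds U6 small nuclear RNA, and Abce1, which recycles ribosomes, headed the genes whose probe sets agreed on a lower signal on the FoxO1-labelled array. Lsm6 read 121 and 209.8 on the FoxO1-labelled array, 2156 and 1675 on the FoxO4-labelled array and 1122 and 2398 on the FoxO3-labelled array. Abce1 read 167 and 919 on the FoxO1-labelled array, 3108 and 6452 on the FoxO4-labelled array and 1693 and 5269 on the FoxO3-labelled array. In both genes the FoxO1-labelled array stood alone at the low end. Gins2, a subunit of the replicative helicase, read 167 and 150 on the FoxO1-labelled array, 1652 and 1039.7 on the FoxO4-labelled array and 2309 and 966 on the FoxO3-labelled array. Shmt1, the cytosolic enzyme that moves a carbon from serine to folate, read 267 and 29.9 on the FoxO1-labelled array, 1844 and 1027 on the FoxO4-labelled array and 1606 and 708 on the FoxO3-labelled array. The log2 differences of Lsm6, Abce1, Gins2 and Shmt1 were -3.58, -3.51, -3.05 and -3.22.

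A second set was high on the FoxO4-labelled array and low on both others. Emilin1, a glycoprotein of elastic fibres, read 1028 and 206 on the FoxO1-labelled array, 4709 and 1482 on the FoxO4-labelled array and 369 and 151 on the FoxO3-labelled array. Mt1, a metallothionein that binds zinc and copper, read 3668 and 122 on the FoxO1-labelled array, 16787 and 1478 on the FoxO4-labelled array and 3057 and 238 on the FoxO3-labelled array. Tmem47, a membrane protein of cell junctions, read 1673 and 745 on the FoxO1-labelled array, 6741 and 4867 on the FoxO4-labelled array and 555 and 484 on the FoxO3-labelled array. For these genes the FoxO4-labelled array was the one that stood apart. Stmn2, a microtubule-destabilising protein best known from neurons, was graded instead, with 1847 and 2998 on the FoxO1-labelled array, 8210.4 and 23876 on the FoxO4-labelled array and 3904 and 8716 on the FoxO3-labelled array. Cp, the copper-carrying ferroxidase ceruloplasmin, read 621 and 134 on the FoxO1-labelled array and 2025 and 1662 on the FoxO4-labelled array. Itm2a, a small membrane protein, read 886 and 503 on the FoxO1-labelled array and 4215 and 3659 on the FoxO4-labelled array. The others of the first 20 were Sgsm1, Ddhd1, Aph1b, Rac2, Cenpn, Slc7a6, Cdt1, Sdk2, Npm1 and Rrm1, with log2 differences between -3.09 for Sgsm1 and -1.68 for Npm1. Dim probe sets of Abce1 and Cdt1 read at least 2-fold the other way. On the FoxO3-labelled array, the 80 higher genes lay between the other 2 arrays in 46 cases, below both in 21 and above both in 13. The 67 lower genes lay between in 43 cases, above both in 13 and below both in 11.

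**Figure D2:**
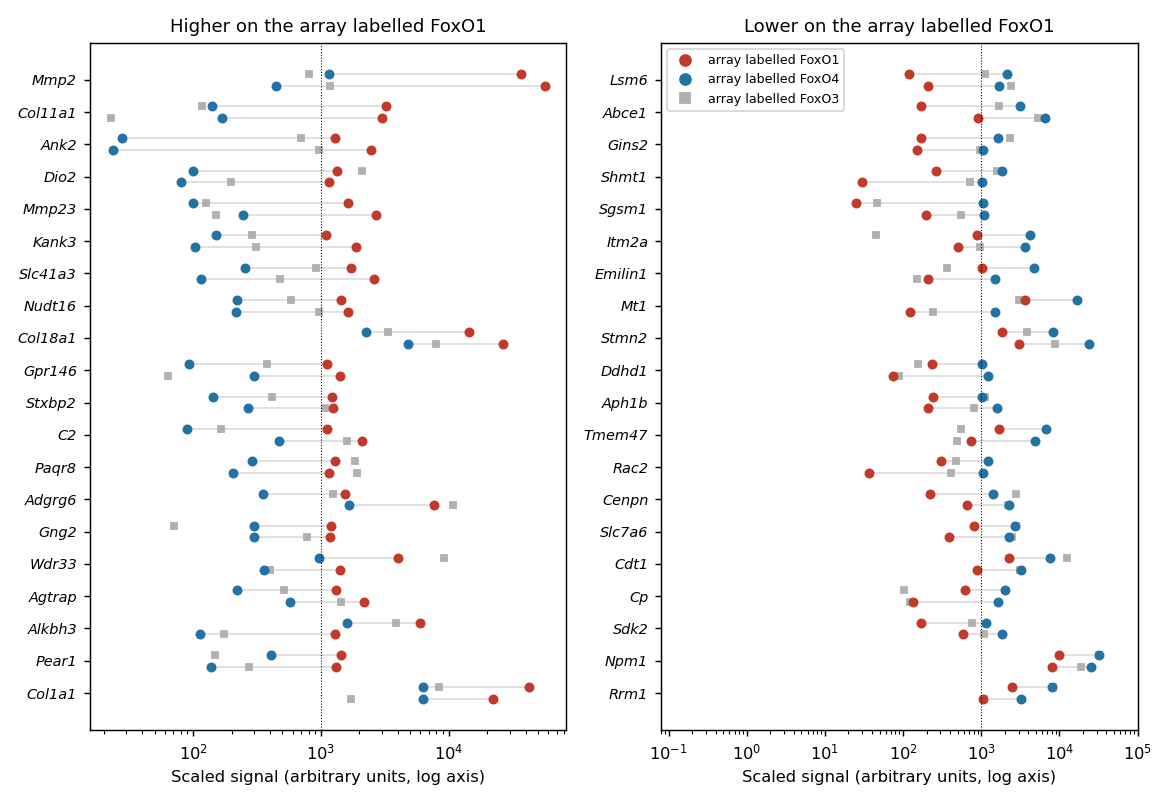
Signal of each bright probe set (log axis, arbitrary units) for the first 20 genes with all bright probe sets at least 2-fold higher (left) or lower (right) on the FoxO1-labelled array, ordered by the probe set nearest 0. Red is the FoxO1-labelled array, blue the FoxO4-labelled array, grey squares the FoxO3-labelled array, and the dotted line marks a signal of 1000. At least 1 red or blue point is below that line in every gene except Col18a1, Col1a1, Stmn2, Npm1 and Rrm1.

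Agreement was also read among the brightest genes. In 353 genes with several bright probe sets, each of these peaked at 4000 or more on the brighter array. Of these genes, 7 were higher and 12 lower on the FoxO1-labelled array by every bright probe set. Over all genes with several bright probe sets, 2.84% were higher and 2.38% lower in this way. The limit of 4000 was set after the values were seen, as were the names below that other rules do not give. Higher were Mmp2, Col18a1, Col1a1, Col1a2, Htra1, Nupr1 and Grina. Htra1, a secreted serine protease, read 33596 and 38034 on the FoxO1-labelled array, 11487 and 10692 on the FoxO4-labelled array and 19736 and 24409.9 on the FoxO3-labelled array. Col1a2, the partner chain of Col1a1, read 174515 and 269397 on the FoxO1-labelled array, 66666 and 131443 on the FoxO4-labelled array and 27281 and 45753 on the FoxO3-labelled array. Both chains of type I collagen were thus highest on the FoxO1-labelled array. Among the 12 lower genes, Npm1, the nucleolar protein nucleophosmin, read 9789 and 8041 on the FoxO1-labelled array, 31701 and 25395 on the FoxO4-labelled array and 31910.3 and 18676 on the FoxO3-labelled array. Fbl, the nucleolar methyltransferase fibrillarin, read 1686 and 2906 on the FoxO1-labelled array, 6159.9 and 8742 on the FoxO4-labelled array and 2502 and 8388 on the FoxO3-labelled array. Nop56, a core protein of the same small nucleolar particles, read 2538 and 3859 on the FoxO1-labelled array, 7422 and 8006 on the FoxO4-labelled array and 5852 and 15458 on the FoxO3-labelled array. Npm1, Fbl and Nop56 were all lower on the FoxO1-labelled array than on both other arrays. The remaining lower genes were C1qbp, Cct6a, Dipk2a, Nme1, Slc25a4, Stmn2, Sulf2, Tmem47 and Tnfrsf12a. Sulf2, which trims sulphate groups from heparan sulphate outside the cell, read 2518 and 8868 on the FoxO1-labelled array, 13988 and 26965 on the FoxO4-labelled array and 808 and 832 on the FoxO3-labelled array, and a dim probe set read 637 on the FoxO1-labelled array and 69.9 on the FoxO4-labelled array.

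DNA replication genes formed the list that was furthest from 0. Of its 36 genes, 28 had a bright probe set, and 17 of these were at least 2-fold lower on the FoxO1-labelled array and none at least 2-fold higher, beside 12.5% and 15.7% of all genes. The list's median log2 difference was -1.24, against 0.01 over all genes, and 26 of the 28 lay below 0. Where probe sets had to reach 1000 on both arrays, 9 of 21 genes were lower and none higher, beside 5.78% and 4.91% of all genes, with a median of -0.64. The median was -1.27 after quantile normalisation. Median and control scaling lower every gene by the same amount and so say nothing of the list against other genes. Without its 3 genes on chromosome 8 (Cdt1, Gins2 and Mcm5), 14 of 25 genes were lower and the median was -1.16. In these same data chromosome 8 had the highest share of lower genes, 23.7%. Leaving it out, here and in lists below, thus tends to take out lower genes and is no independent check. On the FoxO3-labelled array, 20 of the 28 genes were above both other arrays, 6 between and 2 below both. The share of all genes above both was not computed, so this count has no background. Other lists also had many such genes, with 23 of 41 for splicing and messenger RNA processing and 19 of 33 for translation. For heat shock it was 15 of 26, but for fibrillar and network collagens 2 of 22.

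Among 16 replication genes with several bright probe sets, 6 had all of them at least 2-fold lower, beside 2.38% of all such genes. These were Gins2, Fen1, Cdt1, Rrm1, Mcm7 and Mcm3. Much of this agreement rests on probe sets that were bright on the FoxO4-labelled array only. Among the 6 genes, only Rrm1 had every bright probe set at 1000 or more on both arrays, while Mcm7 had this in the probe sets at 1853 and 6385. Of all 67 agreeing lower genes, 19 were kept with 1000 on both arrays. Fen1, the nuclease that trims Okazaki fragments, read 112 and 4246 on the FoxO1-labelled array, 1048 and 11551 on the FoxO4-labelled array and 1082 and 10137 on the FoxO3-labelled array. Cdt1, which loads the helicase at origins, read 2268 and 874 on the FoxO1-labelled array, 7553 and 3194 on the FoxO4-labelled array and 12492 and 3165 on the FoxO3-labelled array. Rrm1, the large subunit of ribonucleotide reductase, read 2457 and 1039 on the FoxO1-labelled array, 8106 and 3253 on the FoxO4-labelled array and 8309 and 1092 on the FoxO3-labelled array. All of these were lowest on the FoxO1-labelled array. Mcm7 and Mcm3 are subunits of the replicative helicase, named here after their values were seen because they complete the count. The 4 probe sets of Mcm7 read 846, 1853, 6385 and 604 on the FoxO1-labelled array, 2747, 4452, 17147 and 1781 on the FoxO4-labelled array and 5893, 7608, 29253 and 3647 on the FoxO3-labelled array. Their log2 differences, -1.70, -1.26, -1.43 and -1.56, lay closer together than the spread of 1.09 between probe sets of a gene in general. All but the first of these carry an s or x mark for possible cross-hybridisation, as do the first and last of Mcm3 below, so they may not be separate checks. Mcm3 read 918, 648 and 619 on the FoxO1-labelled array, 1871, 1952 and 1668 on the FoxO4-labelled array and 5757, 3054 and 3914 on the FoxO3-labelled array. Within the same complex Mcm5 was lower by unequal amounts, with 1241 and 148 on the FoxO1-labelled array and 1672 and 3552 on the FoxO4-labelled array. Mcm6 differed little in its bright probe sets, with 3858 and 1245 on the FoxO1-labelled array and 5589.6 and 1307 on the FoxO4-labelled array. A dim Mcm6 probe set read 855 on the FoxO1-labelled array and 112 on the FoxO4-labelled array. The 2 genes above 0 were Rfc2 and Prim2.

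Mitosis genes leaned the same way by less. Of 38 listed genes 36 had a bright probe set, 12 were at least 2-fold lower and none at least 2-fold higher, beside 12.5% and 15.7% of all genes, and the median was -0.74. With 1000 on both arrays, 8 of 31 were lower and none higher, beside 5.78% and 4.91%. Racgap1, a regulator of cell division, read 1048 and 732 on the FoxO1-labelled array, 2297 and 2468 on the FoxO4-labelled array and 3339.8 and 2991 on the FoxO3-labelled array. It was the 1 gene of 10 with several bright probe sets whose probe sets were all at least 2-fold lower, beside 2.38% of all such genes. Aurkb, a mitotic kinase, read 335 on the FoxO1-labelled array and 1819 on the FoxO4-labelled array, and Ube2c, a ubiquitin-conjugating enzyme that drives exit from mitosis, read 1584 on the FoxO1-labelled array and 4524 on the FoxO4-labelled array. Here 25 of the 36 genes were above both other arrays on the FoxO3-labelled array, again without a share over all genes to set beside it. Among cyclins, cell cycle inhibitors and growth arrest genes, 4 of 26 were higher and 4 lower, near the shares over all genes, with a median of 0.09 that the constant shifts of median and control scaling carry below 0. Cdkn2b, the inhibitor p15, read 1210.3 on the FoxO1-labelled array, 103 on the FoxO4-labelled array and 151 on the FoxO3-labelled array, from 1 probe set.

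**Figure D3:**
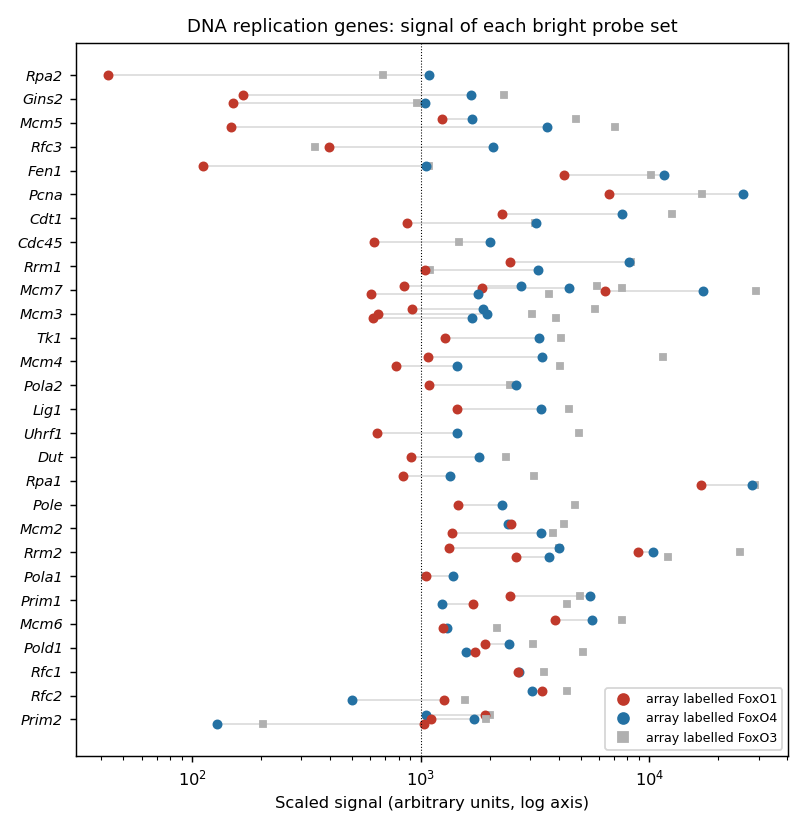
Signal of each bright probe set (log axis, arbitrary units) of the 28 DNA replication genes, ordered by their log2 difference with the lowest at the top. Red is the FoxO1-labelled array, blue the FoxO4-labelled array, grey squares the FoxO3-labelled array and the dotted line a signal of 1000. Red lies left of blue for most probe sets, and grey lies right of both in most of the lower rows.

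Promoters were read for letters that these factors are known to bind, because replication genes are known targets of E2F factors and FoxO factors bind forkhead sites. RefSeq windows of assembly GRCm38.p6, from 250 bases before to 50 after a gene's start, were found for 23 of the 28 replication genes, in 28 windows. The E2F letters searched were TTTCCCGC and TTTGGCGC with their complements GCGGGAAA and GCGCCAAA. They occurred in 8 of the 28 replication windows, or 28.6%, in 1 of 32 mitosis windows, and in 514 of all 32851 windows, or 1.56%. Replication windows were counted whatever the gene's difference, so their share describes the list and not the arrays. Among genes with agreeing probe sets, these letters occurred in 4 of 70 windows of the lower (5.71%) and 2 of 89 of the higher genes (2.25%). The sequences below are the 250 bases before the start, 5' to 3', with these letters in capitals. They show that the letters stand before Mcm7, where all probe sets were lower on the FoxO1-labelled array, before Mcm5, where they were lower by unequal amounts, and before Mcm6, where the bright ones differed little.
Mcm7 (chr5:138171884-138172133, minus strand): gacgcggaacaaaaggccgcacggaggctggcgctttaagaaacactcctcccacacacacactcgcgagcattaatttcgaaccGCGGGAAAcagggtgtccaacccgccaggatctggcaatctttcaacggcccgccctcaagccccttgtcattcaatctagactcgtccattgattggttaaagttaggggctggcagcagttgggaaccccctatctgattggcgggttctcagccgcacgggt
Mcm5 (chr8:75109259-75109508, plus strand): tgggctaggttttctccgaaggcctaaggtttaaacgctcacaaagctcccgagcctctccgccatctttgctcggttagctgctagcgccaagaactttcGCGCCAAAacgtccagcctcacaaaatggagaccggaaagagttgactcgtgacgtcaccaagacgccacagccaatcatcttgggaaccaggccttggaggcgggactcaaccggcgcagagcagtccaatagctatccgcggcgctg
Mcm6 (chr1:128359706-128359955, minus strand): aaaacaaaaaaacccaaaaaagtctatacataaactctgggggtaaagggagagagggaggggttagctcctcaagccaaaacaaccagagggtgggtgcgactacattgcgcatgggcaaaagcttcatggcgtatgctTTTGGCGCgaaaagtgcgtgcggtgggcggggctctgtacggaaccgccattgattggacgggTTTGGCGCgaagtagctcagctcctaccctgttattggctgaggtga
In Mcm7 the letters begin 165 bases before the start, in Mcm5 149, and in Mcm6, which holds them at 2 places, 110. A match is a description of the sequence and not a bound site.

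The forkhead letters GTAAACA, with the complement TGTTTAC, overlap none of the E2F letters. They occurred in 5 of 89 windows of the genes with agreeing higher probe sets (5.62%), in 3 of 70 windows of those with agreeing lower probe sets (4.29%) and in 1199 of all windows (3.65%). The genes were Aacs, Gpr146, Paqr8, Rab43 and Rnf26 on the higher side and Crbn, Lsm6 and Mcm7 on the lower side. The shares on both sides rest on these few windows. In the replication list, 2 of 28 windows held the forkhead letters (7.14%), and in the mitosis list 1 of 32. One gene of each direction is shown, with the forkhead letters in capitals.
Gpr146 (chr5:139389654-139389903, plus strand): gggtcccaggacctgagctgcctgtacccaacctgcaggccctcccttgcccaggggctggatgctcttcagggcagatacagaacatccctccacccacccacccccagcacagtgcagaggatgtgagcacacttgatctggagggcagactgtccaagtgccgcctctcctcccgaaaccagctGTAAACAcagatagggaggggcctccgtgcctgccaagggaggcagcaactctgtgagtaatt
Lsm6 (chr8:78821153-78821402, minus strand): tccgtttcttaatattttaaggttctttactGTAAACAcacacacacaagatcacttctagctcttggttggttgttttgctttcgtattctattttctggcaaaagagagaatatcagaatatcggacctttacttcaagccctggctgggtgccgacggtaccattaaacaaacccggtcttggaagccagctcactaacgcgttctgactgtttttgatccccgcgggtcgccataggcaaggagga
They begin 63 bases before the start of Gpr146, which was higher on the FoxO1-labelled array, and 219 bases before that of Lsm6, which was lower.

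Of the extracellular matrix lists, collagens and basement membrane genes lay furthest above 0. Among fibrillar and network collagens 22 of 24 genes had a bright probe set, 7 were at least 2-fold higher on the FoxO1-labelled array and 1 lower, which is 31.8% and 4.55% beside 15.7% and 12.5% of all genes, and the median was 0.60. With 1000 on both arrays, 5 of 17 were higher and none lower, beside 4.91% and 5.78% of all genes. Of 12 collagen genes with several bright probe sets, 4 had all of them at least 2-fold higher (Col11a1, Col18a1, Col1a1 and Col1a2), beside 2.84% of all such genes. Of these 4, Col11a1 was under 1000 on the FoxO4-labelled array in both bright probe sets. The 1 lower gene was Col11a2, with 241 on the FoxO1-labelled array and 1308 on the FoxO4-labelled array. Basement membrane and matrix glycoproteins had 9 of 21 genes higher and 2 lower, which is 42.9% and 9.52% beside the same shares over all genes, with a median of 0.84, and 6 of 17 higher and 1 lower with 1000 on both arrays. Laminin chains, which assemble the basement membrane around muscle fibres, gave the examples. Lama2, the chain of the muscle laminin, read 7221 on the FoxO1-labelled array, 1666 on the FoxO4-labelled array and 4101 on the FoxO3-labelled array. Lamb2 read 3199.7 on the FoxO1-labelled array and 681 on the FoxO4-labelled array, and Lama4 read 1413 on the FoxO1-labelled array and 209.7 on the FoxO4-labelled array. Both bright probe sets of Lamb1 were 2-fold or more higher, at 1379 and 4232 on the FoxO1-labelled array and 67.8 and 2104 on the FoxO4-labelled array. After quantile normalisation the medians were 0.69 for the collagens and 0.95 for the glycoproteins. Under control scaling, the lowest, they were 0.23 and 0.48. Control and median scaling move every gene alike, so they say nothing of these lists against other genes. Genes of collagen processing had 2 of 18 higher and 1 lower (11.1% and 5.56%), with a median of 0.07 that the constant shifts of median and control scaling carry below 0. With 1000 on both arrays, 3 of 15 collagen processing genes were higher and none lower, with a median of 0.56.

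Other secreted proteins went the other way or were mixed. Their counts are to be read beside 15.7% higher and 12.5% lower over all genes. With 1000 on both arrays, the shares over all genes were 4.91% and 5.78%. Of 17 small leucine-rich proteoglycan and hyaluronan genes, 1 was higher and 5 lower, or 5.88% and 29.4%, with a median of -0.35, and with 1000 on both arrays 1 of 12 was higher and 1 lower. Fmod, the collagen-binding proteoglycan fibromodulin, had 5 bright probe sets, at 96.2, 1111, 1336, 892 and 1934 on the FoxO1-labelled array, 4299.6, 4504, 7755, 7491 and 3056 on the FoxO4-labelled array and 141, 179, 175, 192 and 239 on the FoxO3-labelled array. All 5 were highest on the FoxO4-labelled array, but all except the first carry an x mark for possible cross-hybridisation. A dim Fmod probe set read 541 on the FoxO1-labelled array and 436 on the FoxO4-labelled array. Dcn, which encodes decorin, had the lowest log2 difference of the genes named with 1 bright probe set (-6.60), at 46.8 on the FoxO1-labelled array, 7871 on the FoxO4-labelled array and 1323 on the FoxO3-labelled array, but its dim probe set read 521 on the FoxO1-labelled array and 81.4 on the FoxO4-labelled array. Has2, a hyaluronan synthase, read 721 on the FoxO1-labelled array and 3085 on the FoxO4-labelled array. Among matricellular proteins 3 of 10 were higher and 1 lower, with a median of 0.04 that the constant shifts of median and control scaling carry below 0. With 1000 on both arrays, 1 of 8 matricellular genes was higher and 1 lower, with a median of -0.40. Thbs2, which encodes thrombospondin-2, had its 3 probe sets at 6157, 1428 and 16515 on the FoxO1-labelled array, 2694, 606 and 4767 on the FoxO4-labelled array and 26134, 8782 and 31123 on the FoxO3-labelled array, so the FoxO3-labelled array was the highest. Ccn3 read 2429 and 5752 on the FoxO1-labelled array, 945 and 959 on the FoxO4-labelled array and 299 and 332 on the FoxO3-labelled array, and was highest on the FoxO1-labelled array. Ccn2, the connective tissue growth factor, was lower, at 5227 on the FoxO1-labelled array and 13557 on the FoxO4-labelled array. Matrix proteases and their inhibitors had 7 of 23 genes higher and 2 lower, that is 30.4% and 8.70%, with a median of 0.22 that the constant shift of control scaling carries to -0.14. With 1000 on both arrays, 3 of 20 of them were higher and 2 lower, with a median of 0.10, beside 4.91% and 5.78% of all genes.

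**Figure D4:**
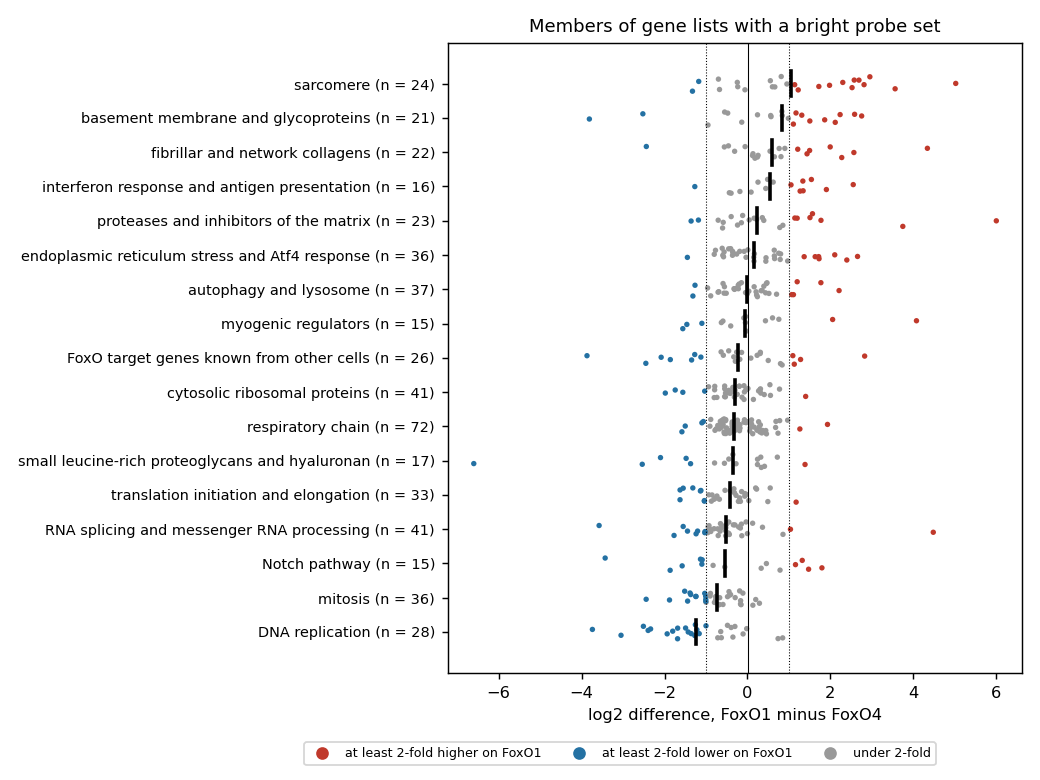
Log2 difference (the FoxO1-labelled array minus the FoxO4-labelled array) of every listed gene with a bright probe set, 1 point a gene and 1 row a list, for 17 lists. Red and blue points are at least 2-fold higher or lower on the FoxO1-labelled array, black bars are list medians, the solid line is the median of all genes and dotted lines are 2-fold. DNA replication and mitosis hold no red point, and the sarcomere median of 1.04 falls to -0.06 where probe sets must reach 1000 on both arrays.

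Lists of muscle differentiation did not share a direction. In the sarcomere list 12 of 24 genes were higher and 2 lower by 2-fold or more, which is 50% and 8.33% beside 15.7% and 12.5% of all genes, with a median of 1.04. Where probe sets had to reach 1000 on both arrays, 2 of 11 were higher and 2 lower, and the median was -0.06. Over all genes, 4.91% were then higher and 5.78% lower. Genes of the muscle membrane and calcium handling had 3 of 17 higher and 4 lower, with 10 of 17 below 0 and a median of -0.29, and none of 12 higher and 2 lower with 1000 on both arrays. Ttn, the giant spring protein titin, had its bright probe sets at 1868 and 3716 on the FoxO1-labelled array, 566 and 1129 on the FoxO4-labelled array and 4115 and 5485 on the FoxO3-labelled array. Of its 4 dim probe sets, 2 were lower on the FoxO1-labelled array by over 2-fold. Myom2, an M-band protein, read 1364 and 1171 on the FoxO1-labelled array, 597 and 553 on the FoxO4-labelled array and 943 and 2389 on the FoxO3-labelled array. Mylpf, the fast-fibre regulatory light chain, read 2610.4 on the FoxO1-labelled array, 80.4 on the FoxO4-labelled array and 1795 on the FoxO3-labelled array, and Mybph, a myosin-binding protein, read 2349 on the FoxO1-labelled array, 199 on the FoxO4-labelled array and 180.2 on the FoxO3-labelled array. Tpm1, a tropomyosin, went the other way in its bright probe sets, with 5889 and 22005 on the FoxO1-labelled array and 20734 and 39299 on the FoxO4-labelled array. Its dim probe sets were higher, at 160 and 454 on the FoxO1-labelled array and 31.8 and 200 on the FoxO4-labelled array. Tnnt1, the slow troponin T, was lower, with 2781 on the FoxO1-labelled array and 6281 on the FoxO4-labelled array.

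Of 15 regulators of myogenesis, 2 were higher and 3 lower, or 13.3% and 20%, beside 15.7% and 12.5% of all genes. In this list 10 of 15 lay below 0, with a median of -0.05. Myog, the transcription factor that commits myoblasts to differentiation, read 2673 on the FoxO1-labelled array, 159 on the FoxO4-labelled array and 653 on the FoxO3-labelled array. Myod1, the determination factor, read 2959 on the FoxO1-labelled array, 713 on the FoxO4-labelled array and 2140.1 on the FoxO3-labelled array, and its dim probe set was higher there too. Id1 and Id2, inhibitors of these factors, were lower. Id1 read 3489 on the FoxO1-labelled array and 10283 on the FoxO4-labelled array. Id2 read 244 and 989 on the FoxO1-labelled array and 1269 and 1442 on the FoxO4-labelled array, so 1 of its probe sets was under 2-fold. Hey1, a Notch target, read 1469 on the FoxO1-labelled array and 3149 on the FoxO4-labelled array. Among the myoblast markers, Des, the muscle intermediate filament protein desmin, read 6907 and 1051 on the FoxO1-labelled array, 272 and 542 on the FoxO4-labelled array and 7433 and 449 on the FoxO3-labelled array. Itga7, the muscle laminin receptor subunit, read 16883 on the FoxO1-labelled array, 4124 on the FoxO4-labelled array and 20688 on the FoxO3-labelled array. The first Des probe set and that of Itga7 were low on the FoxO4-labelled array alone, while Cdh15, the muscle cadherin, was lowest on the FoxO1-labelled array, at 4761 against 10638 on the FoxO4-labelled array and 10814 on the FoxO3-labelled array.

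Genes known as FoxO targets in other cells showed no common direction. Of 26 with a bright probe set, 4 were higher and 7 lower, which is 15.4% and 26.9% beside 15.7% and 12.5% of all genes, with a median of -0.22. Without the genes on chromosome 8, 4 of 22 were higher and 4 lower, with a median of -0.05. Over the whole list, 1 of 17 was higher and 1 lower with 1000 on both arrays, with a median of 0.08. None of the 7 with several bright probe sets had all of them 2-fold the same way, beside 2.84% higher and 2.38% lower of all such genes. Fbxo32, the muscle ubiquitin ligase atrogin-1, read 110.4 on the FoxO1-labelled array and 1613 on the FoxO4-labelled array by its bright probe set, while its 2 dim ones read 486 and 755 on the FoxO1-labelled array against 119 and 269.5 on the FoxO4-labelled array. Its direction is thus undecided between probe sets. Cited2, a transcriptional coregulator, was lower by both probe sets, at 133 and 7275 on the FoxO1-labelled array and 1524 and 11394 on the FoxO4-labelled array, with log2 differences of -3.52 and -0.65. Txnip, a thioredoxin inhibitor, read 349 on the FoxO1-labelled array and 1266 on the FoxO4-labelled array, and Rbl2, the pocket protein p130, read 198 on the FoxO1-labelled array and 1079.5 on the FoxO4-labelled array. Gadd45a and Gadd45b, growth arrest genes, were higher. Gadd45b had 3 bright probe sets at 1002, 1722 and 1449 on the FoxO1-labelled array and 413, 1104 and 434 on the FoxO4-labelled array, and Gadd45a had 1, at 3791 on the FoxO1-labelled array and 1777 on the FoxO4-labelled array. Ccnd2, a D-type cyclin, had 1 bright probe set at 1509 on the FoxO1-labelled array and 213 on the FoxO4-labelled array.

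Lists of RNA processing, protein synthesis and respiration had medians below 0. Beside 15.7% higher and 12.5% lower over all genes, splicing and messenger RNA processing had 2 of 41 genes higher and 8 lower (4.88% and 19.5%), with a median of -0.53, and 5 lower and none higher of 36 with 1000 on both arrays. Translation initiation and elongation had 1 of 33 higher and 8 lower (3.03% and 24.2%), with a median of -0.42, and 6 lower and none higher with 1000 on both arrays. Eif4a1, the initiation helicase, had probe sets at 12341, 3049 and 23834 on the FoxO1-labelled array and 38104, 19008 and 26982 on the FoxO4-labelled array, the last of which was under 2-fold. Eif3a, a scaffold of initiation factor eIF3, read 9340.3, 298 and 7090 on the FoxO1-labelled array and 16914, 2359 and 17674 on the FoxO4-labelled array. Cytosolic ribosomal proteins had 1 of 41 higher and 4 lower (2.44% and 9.76%) with a median of -0.30, and on the FoxO3-labelled array 31 of the 41 were above both other arrays. The share of all genes in that order was not computed. The respiratory chain had 2 of 72 higher and 4 lower (2.78% and 5.56%) with a median of -0.32. By these counts the last 2 lists held smaller shares of 2-fold genes in either direction than all genes did. With 1000 on both arrays, 3 of 40 ribosomal genes were lower and none higher. For the respiratory chain 4 of 70 were then lower and 1 higher, beside 5.78% lower and 4.91% higher of all genes. All 4 medians stayed below 0 after quantile normalisation, and the constant shifts of median and control scaling lower them further.

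Stress and defence lists were mixed. The endoplasmic reticulum stress and Atf4 list had 7 of 36 genes higher and 1 lower, that is 19.4% and 2.78%, with a median of 0.15 that the constant shifts of median and control scaling carry below 0. Over all genes these shares were 15.7% and 12.5%. With 1000 on both arrays, 3 of 32 genes of the list were higher and 1 lower, with a median of -0.01, beside 4.91% and 5.78% of all genes. Trib3, a pseudokinase induced by Atf4, read 1687 and 2343 on the FoxO1-labelled array, 517 and 193 on the FoxO4-labelled array and 939.5 and 1185 on the FoxO3-labelled array. Nupr1, a stress-induced nuclear protein, read 8029 and 9251 on the FoxO1-labelled array, 1769 and 3841 on the FoxO4-labelled array and 5824 and 4339 on the FoxO3-labelled array. Both were lowest on the FoxO4-labelled array. Slc7a5, a leucine transporter, read 7997 on the FoxO1-labelled array, 1860.1 on the FoxO4-labelled array and 8058 on the FoxO3-labelled array. Antioxidant and metallothionein genes had 3 of 30 higher and 7 lower (10% and 23.3%), with a median of -0.34. Without the genes on chromosome 8, which include Mt1, Mt2 and Hmox1, 3 of 24 were higher and 3 lower, with a median of -0.06. Beside Mt1, Mt2 read 1242 on the FoxO1-labelled array and 4691 on the FoxO4-labelled array, and Hmox1, the haem-degrading oxygenase, read 691 on the FoxO1-labelled array and 2329.5 on the FoxO4-labelled array. Gpx3, a secreted glutathione peroxidase, was higher in its 1 probe set, at 3586 on the FoxO1-labelled array, 47.1 on the FoxO4-labelled array and 140.1 on the FoxO3-labelled array. Interferon response and antigen presentation genes had 7 of 16 higher and 1 lower (43.8% and 6.25%), with a median of 0.55, and 4 of 13 higher with none lower where both arrays reached 1000. H2-D1, a class I histocompatibility gene, read 2076, 10355 and 3286 on the FoxO1-labelled array and 1311, 2453 and 1129 on the FoxO4-labelled array in its bright probe sets. H2-K1, a close relative whose probes can match other class I genes, had 3 of 4 probe sets higher and 1 level, at 1314, 1555, 1993 and 1255 on the FoxO1-labelled array and 166, 360.3, 104 and 1340 on the FoxO4-labelled array. Tap2, which carries peptides to these molecules, read 3025 on the FoxO1-labelled array and 809 on the FoxO4-labelled array.

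Genes with a single bright probe set reached larger differences, without a second probe set to compare. They supplied 1128 of the higher and 841 of the lower genes. Slc30a9, of the zinc transporter family, read 4098 on the FoxO1-labelled array, 85.6 on the FoxO4-labelled array and 2589 on the FoxO3-labelled array. Fndc1, a fibronectin-type secreted protein, read 18005 on the FoxO1-labelled array, 698 on the FoxO4-labelled array and 444 on the FoxO3-labelled array, and its dim probe set was also higher on the FoxO1-labelled array. The other high ones were Dstyk, Gpx3, Eva1b, Stat5b, Mylpf and Arhgef5. For Stat5b, a transcription factor of cytokine signalling, the bright probe set read 3107 on the FoxO1-labelled array and 37.2 on the FoxO4-labelled array, while a dim one read 86.4 on the FoxO1-labelled array and 590 on the FoxO4-labelled array. At the low end, after Dcn, stood Map4k5, Leo1, Me2, Mavs, Zfp955b, Ftsj1 and Cbll1, between -4.95 for Map4k5 and -4.22 for Cbll1. Dim probe sets of Mavs, Ftsj1 and Zfp955b read over 2-fold the other way.

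Some genes had bright probe sets that contradicted each other. Sfrp1, a secreted Wnt inhibitor, read 66.5 and 2526 on the FoxO1-labelled array and 1346 and 162 on the FoxO4-labelled array. Fgf7, a growth factor for epithelium, read 1133 and 89.3 on the FoxO1-labelled array and 134 and 2669 on the FoxO4-labelled array. Zfp865, Cc2d1b, Tmem216 and Dpy19l3 were split in the same way. In each of these 6 genes 1 probe set was over 2-fold higher and another over 2-fold lower on the FoxO1-labelled array, so their median says nothing of a direction.

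By position, chromosome 8 held the highest share of genes lower on the FoxO1-labelled array. It had 486 genes, of which 23.7% were lower and 9.26% higher by 2-fold or more, against 12.5% and 15.7% of all genes, and the median log2 difference was -0.31. Of its 147 genes with several bright probe sets, 11 had all of them at least 2-fold lower and 3 all at least 2-fold higher. Over all genes with several bright probe sets these shares were 2.38% and 2.84%. Lsm6, Abce1, Gins2, Mt1, Cenpn, Slc7a6 and Cdt1 are on chromosome 8, as is Mmp2 at the other extreme. Cut into 5 equal parts of its genes by position, the chromosome had medians of -0.25, -0.25, -0.54, -0.36 and -0.26 from start to end. The chromosomes with the highest medians were 10, 1, 4 and 9, at 0.21 or 0.22.

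**Figure D5:**
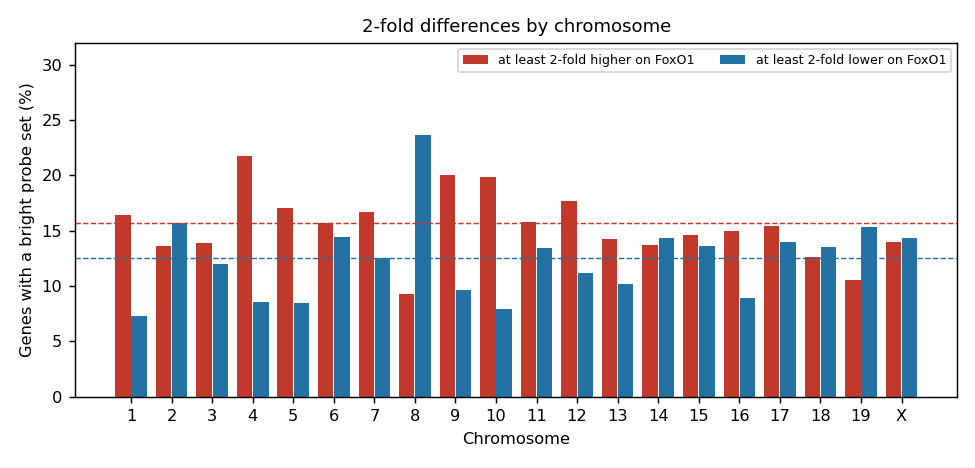
Share of the genes of each chromosome (y axis, percent of genes with a bright probe set) at least 2-fold higher (red, left bar) or lower (blue, right bar) on the FoxO1-labelled array. Dashed lines mark the shares over all genes, 15.7% in red and 12.5% in blue, and chromosome 8 has the tallest blue bar, at 23.7%.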

How the data were processed

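Total RNA of each line was labelled and hybridised to 1 array, per the labels' protocols. The values are probe set intensity (signal), which the authors deposited after making them with GCOS, per the submitters' processing notes, whose version is not given in the sources used here. From the values themselves, the deposited intensity has a mean near 1000 on each array once 2% of the probe sets is trimmed at each end. The authors' ratio and call columns were not used.

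Of 45101 probe sets, 34958 had 1 gene symbol in GEO's platform annotation, 932 several and 9211 none, and symbols were updated through the Entrez identifier for 34754. Genes are named only from probe sets with 1 symbol. Signals were raised to the 20th percentile of the array (81.2 on the FoxO1-labelled array and 77.3 on the FoxO4-labelled array) and taken to log2, and the difference was formed per probe set with Python 3.11.15, numpy 2.4.6 and pandas 2.3.3. Figures were drawn with matplotlib 3.10.9. With 1 array a line no test was possible, and the number of arrays limits the precision. The counting was tested on simulated data, with changes larger than 2-fold that all probe sets of a gene shared. The simulated noise was smaller than the spread of 1.09 between probe sets of a gene in the data. That test therefore checks the counting and not how sure the 2-fold calls are.

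The genes named are Foxo1, Foxo3 and Foxo4, the first 20 in each direction among genes whose 2 or more bright probe sets all differ 2-fold the same way, ranked by the probe set nearest 0, the first 8 in each direction among genes with 1 bright probe set, up to 4 in each direction from each gene list, and the 6 genes with the widest contradiction between bright probe sets. Markers, forkhead hits, Rfc2, Prim2, Mcm3, Mcm5, Mcm6, Mcm7 and the genes at 4000 or more stand outside these ranks, and all but the markers were chosen after their values were seen. The members and the lists were chosen with earlier results of these data known. Promoter windows are RefSeq's, of GRCm38.p6.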

Additional observations from a re-analysis of the deposited data

How the results depend on the processing

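Counts of genes moved by more than 1.5 times with the signal minimum, the fold limit and control scaling, and those of agreeing probe sets also with median scaling. Against 1434 genes higher and 1139 lower on the FoxO1-labelled array, there were 2915 and 2142 with a signal minimum of 500, 543 and 568 with 2000, 315 and 371 with 1000 required on both arrays, 747 and 507 at 3-fold, and 924 and 2005 with arrays scaled on the hybridisation controls, a setting chosen after seeing the data. Against 80 genes with all bright probe sets higher and 67 with all lower, there were 203 and 125 with a minimum of 500, 20 and 30 with 2000, 8 and 20 with 1000 on both arrays, 27 and 23 at 3-fold, 52 and 129 with arrays divided by their median, and 38 and 202 with control scaling. Of the 80 and the 67, 52 and 67 were kept with median scaling, 72 and 64 with quantile normalisation, 7 and 19 with 1000 on both arrays, and 54 and 42 without the probe sets that carry an s or x mark for possible cross-hybridisation. Among named genes past the 2-fold limit, 2 changed sign under one of these settings. H2-K1 read -0.095 with 1000 on both arrays, and Zfp865 read -3.64 from its brightest probe set. Of the 2 lists with a median past the 2-fold limit, DNA replication kept its sign throughout and the sarcomere list turned to -0.061 with 1000 on both arrays. Of 50 lists, 19 changed sign under at least 1 setting other than median and control scaling, which move every gene by the same amount. No paired analysis was possible because each line has 1 array and no replicate numbers. Leaving out a replicate was likewise not possible, and signals near the minimum vary between probe sets of a gene by as much as the 2-fold limit.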

Other observations

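Counts in the lists not described above are to be read beside the 15.7% of all genes that were higher and the 12.5% that were lower. Notch pathway genes, which hold muscle precursors undifferentiated, had 4 of 15 genes at least 2-fold higher on the FoxO1-labelled array and 6 lower (26.7% and 40%), with a median of -0.55 that was -0.01 where probe sets had to reach 1000 on both arrays. Heyl, a target of the pathway, was higher by both bright probe sets, with 3034 and 1311 on the FoxO1-labelled array, 648 and 510.1 on the FoxO4-labelled array and 911 and 205 on the FoxO3-labelled array. Its dim probe set went the other way, at 55.7 on the FoxO1-labelled array and 670 on the FoxO4-labelled array. Hey1, of the same family, was lower. Lfng, an enzyme that modifies Notch receptors, read 116 on the FoxO1-labelled array, 1255 on the FoxO4-labelled array and 570.2 on the FoxO3-labelled array. The ligand Jag1 gave 1 probe set that differed and 1 that did not, with 66.7 and 2101 on the FoxO1-labelled array and 1069 and 2117 on the FoxO4-labelled array.

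Axon guidance genes had 7 of 26 higher and 3 lower (26.9% and 11.5%), with a median of -0.13 that was 0.07 without genes on chromosome 8, and 4 of 17 higher and none lower with 1000 on both arrays. Slit2, a secreted repellent for growing axons, was bright on all 3 arrays, with 27088 on the FoxO1-labelled array, 2023 on the FoxO4-labelled array and 1049.9 on the FoxO3-labelled array. Heat shock genes had 2 of 26 higher and 5 lower (7.69% and 19.2%), with a median of -0.54. Hspa4, a chaperone, read 4183 and 145 on the FoxO1-labelled array, 10688 and 1318 on the FoxO4-labelled array and 10309 and 122 on the FoxO3-labelled array in its bright probe sets. Its dim probe sets read 856 and 411 on the FoxO1-labelled array and 945 and 34.4 on the FoxO4-labelled array. Muscle atrophy ligases and the proteasome had 2 of 38 higher and 3 lower (5.26% and 7.89%), below the shares over all genes, and none of 33 in either direction with 1000 on both arrays. Autophagy and lysosome genes had 5 of 37 higher and 2 lower (13.5% and 5.41%), also below them. With 1000 on both arrays, 3 of 34 autophagy and lysosome genes were higher and 1 lower, beside 4.91% and 5.78% of all genes. Among chemokines, cytokines and complement, 4 of 17 were higher and 3 lower (23.5% and 17.6%). Cxcl5, a neutrophil chemokine, read 104 on the FoxO1-labelled array and 1245 on the FoxO4-labelled array, and Ccl2, a monocyte chemokine, read 308 on the FoxO1-labelled array and 1689.5 on the FoxO4-labelled array. Gapdh, the glycolytic enzyme often taken as a constant gene, read 45546, 9109 and 20135 on the FoxO1-labelled array and 90185, 40458 and 66502 on the FoxO4-labelled array. Its 3' over 5' ratio, 5.0 on the FoxO1-labelled array and 2.23 on the FoxO4-labelled array, differed too, and the part of that in its signal was not tested.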
